A study of Mus musculus with 7 samples.

Results

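In leukaemia cells treated with an LSD1 inhibitor, chromatin states E1 and E6 formed long unbroken stretches. They overlapped 1773 of 21631 protein-coding genes (8.2%), among them genes of blood cells. The stretches described here were found in the segmentation of the cells treated with GSK-LSD1, on chromosomes 1 to 19 and X. Adjacent segments in state E1 or E6 were merged, and merged stretches of at least 20 kb were kept. The rule kept 1826 of 26621 merged stretches (6.86%). They covered 69.6 Mb, which was 38.8% of all E1 and E6 area in GSK-LSD1 and 2.64% of the chromosomes used. The states and lengths in GSK-LSD1 chose the stretches, so their number, length and E1 and E6 content are descriptions.

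The cells were murine leukaemia cells made from bone marrow of the BALB/c background, in which a retrovirus expressed mutant forms of CSF3R, which binds the cytokine G-CSF, and of CEBPA, which commits progenitors to the granulocyte lineage. Both groups carried the introduced genes beside the cells' own copies. GSK-LSD1, an LSD1 inhibitor, was given at 4 nM, and the other group received DMSO, the solvent alone, each for 48 h in culture. Chromatin immunoprecipitation and sequencing was done for H3K4me1, H3K4me3 and H3K27Ac, with 1 library per mark and treatment and 1 input library. The authors deposited 1 segmentation per treatment, in which each segment on a 200 bp grid carries a state from E1 to E6. There was no replicate, so no difference between treatments could be tested, and no difference below has a p-value. Intervals are 95% Wilson intervals, which cover counting error only. The depth behind the states is unknown, since the segmentations hold no counts. The marks behind each state are not stated in the sources used here, and the same number may stand for other marks in the other segmentation. State E3, which covered 73.3% of the genome in DMSO, is called background.

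H3K4me1 is typical of enhancers, H3K4me3 of promoters, and H3K27Ac of active elements of both kinds. LSD1, encoded by Kdm1a, removes methyl groups from histone H3 lysine 4 and works with the CoREST complex, which the repressors GFI1 and GFI1B bring to enhancers and promoters of blood cell genes. Long runs of densely marked chromatin are known at genes that define a cell's identity, such as transcription factors and surface receptors.

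The promoters of 6 genes inside the stretches are shown because their start sites stood in different states in DMSO. Each window runs 5′ to 3′ from 250 bases before to 50 bases after a start site, from RefSeq on GRCm38. Capitals mark matches to motifs searched on both strands: TTGCNNAA for C/EBP, GAGGAAG for ETS factors, AATCNCNGC for GFI1 and TTCNNNGAA for STAT factors. In GSK-LSD1 the start was E6 in every one but Elane, which was E1. In DMSO the start was E2 at Itgam and Elane, E4 at Mmp8, E5 at Gfi1 and Socs3, and E6 at Etv6. Itgam encodes the integrin CD11b, Mmp8 a neutrophil collagenase, Elane neutrophil elastase, Gfi1 the repressor that binds LSD1, Socs3 an inhibitor of cytokine signalling and Etv6 an ETS family repressor of blood stem cells.
Itgam, chr7:128062390-128062689, plus strand: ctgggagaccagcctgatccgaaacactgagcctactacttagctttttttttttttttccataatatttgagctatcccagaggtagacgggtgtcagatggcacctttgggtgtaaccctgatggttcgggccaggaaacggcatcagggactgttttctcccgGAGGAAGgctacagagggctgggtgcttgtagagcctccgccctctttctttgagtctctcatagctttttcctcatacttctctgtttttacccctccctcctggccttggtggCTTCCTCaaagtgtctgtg
Elane, chr10:79886062-79886361, plus strand: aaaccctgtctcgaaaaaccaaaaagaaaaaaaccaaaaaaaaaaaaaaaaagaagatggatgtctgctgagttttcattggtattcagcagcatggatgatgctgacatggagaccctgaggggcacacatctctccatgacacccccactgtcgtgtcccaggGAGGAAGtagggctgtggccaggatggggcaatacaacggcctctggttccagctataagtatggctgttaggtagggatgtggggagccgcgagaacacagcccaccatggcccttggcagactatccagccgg
Mmp8, chr9:7558179-7558478, plus strand: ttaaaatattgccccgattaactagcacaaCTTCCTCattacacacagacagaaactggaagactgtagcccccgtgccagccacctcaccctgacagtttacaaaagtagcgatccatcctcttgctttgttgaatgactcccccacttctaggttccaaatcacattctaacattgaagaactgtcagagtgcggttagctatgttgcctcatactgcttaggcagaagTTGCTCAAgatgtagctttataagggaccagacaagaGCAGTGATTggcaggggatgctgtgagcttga
Gfi1, chr5:107725756-107726055, minus strand: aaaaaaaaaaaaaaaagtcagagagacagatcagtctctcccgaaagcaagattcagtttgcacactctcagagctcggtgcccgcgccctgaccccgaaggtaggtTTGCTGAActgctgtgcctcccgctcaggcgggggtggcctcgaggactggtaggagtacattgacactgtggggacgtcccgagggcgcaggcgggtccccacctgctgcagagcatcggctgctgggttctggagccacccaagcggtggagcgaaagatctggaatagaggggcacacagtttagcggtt
Socs3, chr11:117969317-117969616, minus strand: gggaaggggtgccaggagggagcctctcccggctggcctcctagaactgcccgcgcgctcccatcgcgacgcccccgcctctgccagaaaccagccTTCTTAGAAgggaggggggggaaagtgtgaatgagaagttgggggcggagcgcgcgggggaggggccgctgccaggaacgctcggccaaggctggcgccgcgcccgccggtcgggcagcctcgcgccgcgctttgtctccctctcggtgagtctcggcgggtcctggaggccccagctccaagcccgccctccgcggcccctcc
Etv6, chr6:134035450-134035749, plus strand: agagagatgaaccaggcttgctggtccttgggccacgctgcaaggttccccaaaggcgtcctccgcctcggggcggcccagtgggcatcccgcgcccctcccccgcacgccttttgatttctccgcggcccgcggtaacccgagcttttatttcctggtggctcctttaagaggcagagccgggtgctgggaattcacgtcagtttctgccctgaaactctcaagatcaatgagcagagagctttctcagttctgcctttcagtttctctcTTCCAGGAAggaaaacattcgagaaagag

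Itgam held 2 ETS matches, Elane 1 ETS match, and Mmp8 1 match each to the C/EBP, ETS and GFI1 motifs. Gfi1 held 1 C/EBP match, and Socs3 and Etv6 held 1 STAT match each. A match is a description of letters, not a binding site. Over the 1175 start sites inside the stretches, 11.6% of windows held the C/EBP motif, 15.3% the ETS motif, 4.43% the GFI1 motif and 8% the STAT motif. The shares over all 21045 promoter windows were 10.3%, 13.3%, 3.98% and 7.76%. A RUNX motif, TGTGGT, stood in 14.4% of the windows inside and in 14.7% of all windows. The windows inside held a median of 16 CpG dinucleotides, against 13 in all windows and 21 at start sites that were E5 in GSK-LSD1.

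Of 1005 microRNA hairpins in the hairpin table used, 68 (6.77%) lay inside the stretches. The gene annotation held 1228 microRNA genes, of which 72 (5.86%) were overlapped by a stretch. Mature sequences from 5 loci are shown, grouped by shared seed (bases 2 to 8, in capitals), because microRNAs with the same seed recognise the same target letters.
mmu-miR-29a-3p, chr6:31062673-31062694, minus strand: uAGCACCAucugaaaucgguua
mmu-miR-29b-3p, chr6:31063025-31063047, minus strand: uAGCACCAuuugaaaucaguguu
mmu-miR-221-3p, chrX:19146307-19146329, minus strand: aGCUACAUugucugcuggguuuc
mmu-miR-222-3p, chrX:19146901-19146923, minus strand: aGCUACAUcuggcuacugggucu
mmu-miR-721, chr5:136375777-136375797, minus strand: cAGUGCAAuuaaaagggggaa
mmu-miR-130c, chr9:53400808-53400829, minus strand: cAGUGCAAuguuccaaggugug
mmu-miR-21a-5p, chr11:86584120-86584141, minus strand: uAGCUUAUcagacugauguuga

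The miR-29a and miR-29b-1 hairpins share 1 stretch of 29.6 kb that overlapped no protein-coding gene, and both were E1 in GSK-LSD1 and E2 in DMSO. The miR-221 and miR-222 hairpins share 1 stretch of 27.6 kb on chromosome X, 310 kb from the nearest protein-coding gene. That stretch was 69.6% E6 in GSK-LSD1, and in DMSO it was 37.7% E5 and 24.6% E1 or E6. By contrast, miR-721 within Cux1 and miR-130c near Poglut3 share a seed but lie on different chromosomes, and both were E1 in GSK-LSD1 and E2 in DMSO. The hairpin of miR-21a, a microRNA abundant in myeloid cells, was E6 in both segmentations, within a stretch of 76.2 kb over Vmp1 and Tubd1. The hairpins of miR-23b, miR-27b and miR-24-1 lay together in a stretch of 99.6 kb over Aopep and Fancc and were E1 in both segmentations.

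The stretches were 20 to 234 kb long, with a median of 30.3 kb and a middle 50% of 23.6 to 42.95 kb. There were 341 of at least 50 kb, 51 of at least 100 kb and 4 of at least 200 kb. At the limit, 26 stretches were exactly 20 kb long and 23 of 19.8 kb were left out. Under the same rule the DMSO segmentation gave 17 stretches of 7512, with 0.501 Mb in all and a longest of 74.4 kb, and 15 of these 17 were overlapped by a stretch in GSK-LSD1. The median over all merged stretches was 3.2 kb in GSK-LSD1 and 1.6 kb in DMSO.

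**Figure D1:**
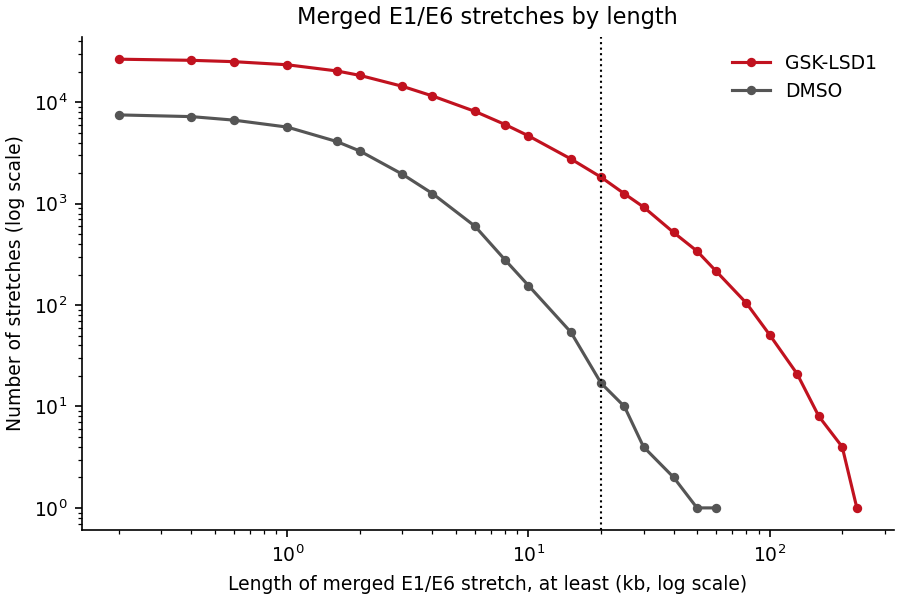
Number of merged E1/E6 stretches (vertical, log scale) that were at least as long as the value on the horizontal axis (kb, log scale), in GSK-LSD1 (red) and DMSO (grey). At the dotted line of 20 kb there were 1826 in GSK-LSD1 and 17 in DMSO, and none in DMSO reached 80 kb.

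Both states took part in nearly every stretch. E1 made up 66.0% of the bins (45.9 Mb) and E6 34.0% (23.7 Mb), and 1762 stretches (96.5%) held both. A stretch alternated between a median of 3 runs of E1 and 3 runs of E6, and the runs had median lengths of 4.4 kb for E1 and 2.4 kb for E6. The E6 share per stretch had a median of 31.7%, with a middle 50% of 17.6 to 46.9%. E6 exceeded 50% in 395 stretches, 63 were E1 throughout, and 1 was E6 throughout. E6 lay towards the middle: in the mean over stretches it took 22.0% of the first of 20 equal parts, 40.7% of a central part and 21.9% of the last. The outermost segment was E1 at 79.4% of the ends. Beyond the ends lay E2 in 75.3% of cases, E5 in 19.6% and E4 in 5.04%, and background in none. At shorter stretches E2 bordered 65.6% and E5 27.7% of the ends.

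**Figure D2:**
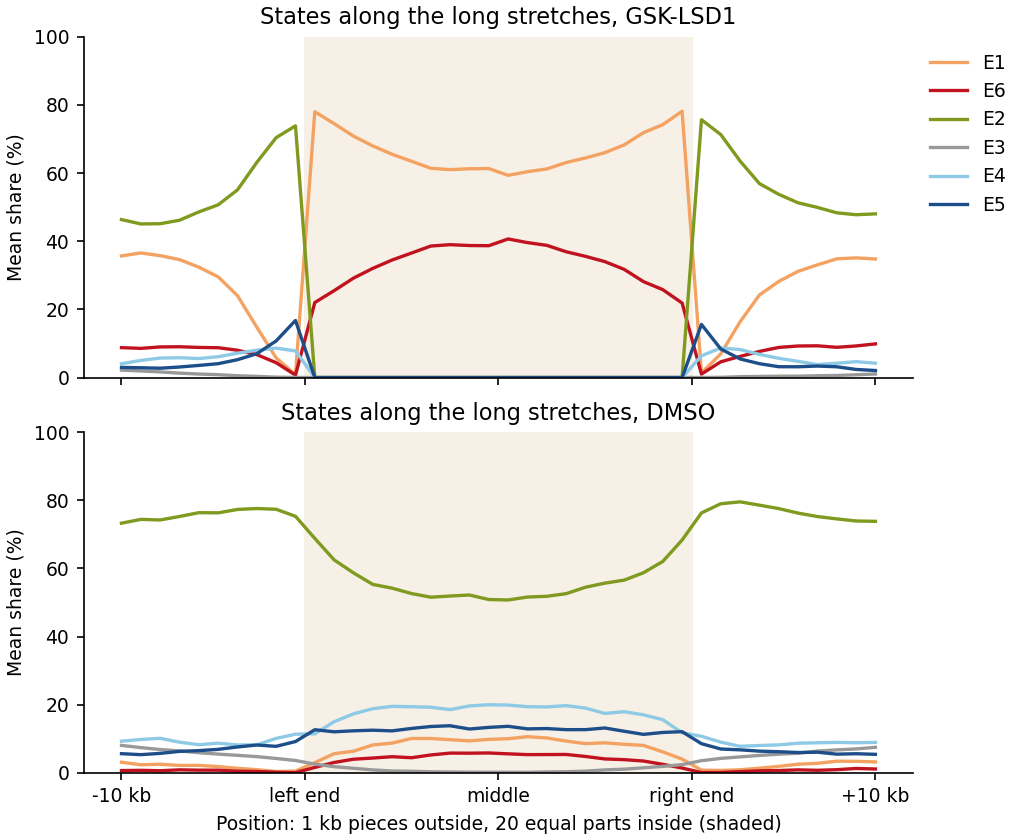
Mean share of each state (%) along the 1826 stretches, scaled to 20 equal parts inside (shaded) with 10 kb in 1 kb pieces on each side, in GSK-LSD1 (top) and DMSO (bottom). Inside, GSK-LSD1 holds E1 and E6 by the rule, with E6 at 40.7% near the middle, while in DMSO E2 is lowest there, at 50.7%.

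The E6 runs were not mainly at promoters. Of 6045 E6 runs inside the stretches, 850 (14.1%, interval 13.2 to 14.96%) lay within 1 kb of a start site of a protein-coding gene, against 35.2% (34.5 to 36.0%) of the 14162 E6 runs in shorter stretches. Start sites were themselves mostly E6: of the 1175 inside the stretches, 1035 were E6 (88.1%, 86.1 to 89.8%) and the others E1. In DMSO 59.6% of these start sites were E5, 23.4% E6, 8.51% E2 and 6.13% E4. Of 5808 start sites in shorter stretches, 94.6% (94.0 to 95.2%) were E6 in GSK-LSD1 and 80.3% were E5 in DMSO. Long stretches with a start site (715) had a median E6 share of 44.2%. Those over a gene but without a start site (797) had 23.3%, and those with no gene (314) had 22.3%. In DMSO the same 3 classes had median E5 shares of 18.4%, 6.05% and 3.53%.

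Nearly all of this area was outside background in DMSO too. At the positions of the stretches, DMSO was 55.3% E2, 17.1% E4, 12.2% E5, 9.61% E1, 5.03% E6 and 0.751% background. The genome in DMSO was 21.3% E2, 2.76% E4, 1.98% E5, 0.483% E1 and 0.217% E6. A stretch was divided into a median of 6 segments in GSK-LSD1 and 11 in DMSO, with more segments in DMSO in 1556 stretches, fewer in 131 and equally many in 139. By the rule a stretch can hold only 2 states in GSK-LSD1, while DMSO can hold all 6, so these segment counts are not a like comparison. In DMSO, 521 stretches (28.5%) held no E1 or E6, 1110 were over 50% E2, 320 over 50% E4 or E5, and 44 over 50% E1 or E6. Background was absent from 1713 of them in DMSO.

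E1 and E6 in GSK-LSD1 stood over different DMSO states. Of the E1 area in the stretches, 78.3% was E2 in DMSO, 11.1% E4 and 8.97% E1. Of the E6 area, 35.1% was E5 in DMSO, 28.7% E4, 14.5% E6, 10.9% E1 and 10.7% E2. Every bin here is E1 or E6 in GSK-LSD1 by the rule. Within that limit, the share that was E6 in GSK-LSD1 was 97.6% of bins that were E5 in DMSO, 57.2% of E4 bins, 38.4% of E1 bins and 6.57% of E2 bins. The stretches held 52.6% of all E1 area and 61.1% of all E6 area in DMSO, against 36.9% of all E1 and 43.1% of all E6 area in GSK-LSD1.

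Length went together with the DMSO state. The share that was E1 or E6 in DMSO was 1.17% in stretches under 1 kb, 4.31% at 1 to 5 kb, 6.15% at 5 to 10 kb, 7.90% at 10 to 20 kb, 10.9% at 20 to 40 kb and 18.6% at 40 kb or more. The background share ran the other way, at 9.06%, 6.64%, 3.59%, 2.20%, 1.01% and 0.480% in the same classes.

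**Figure D3:**
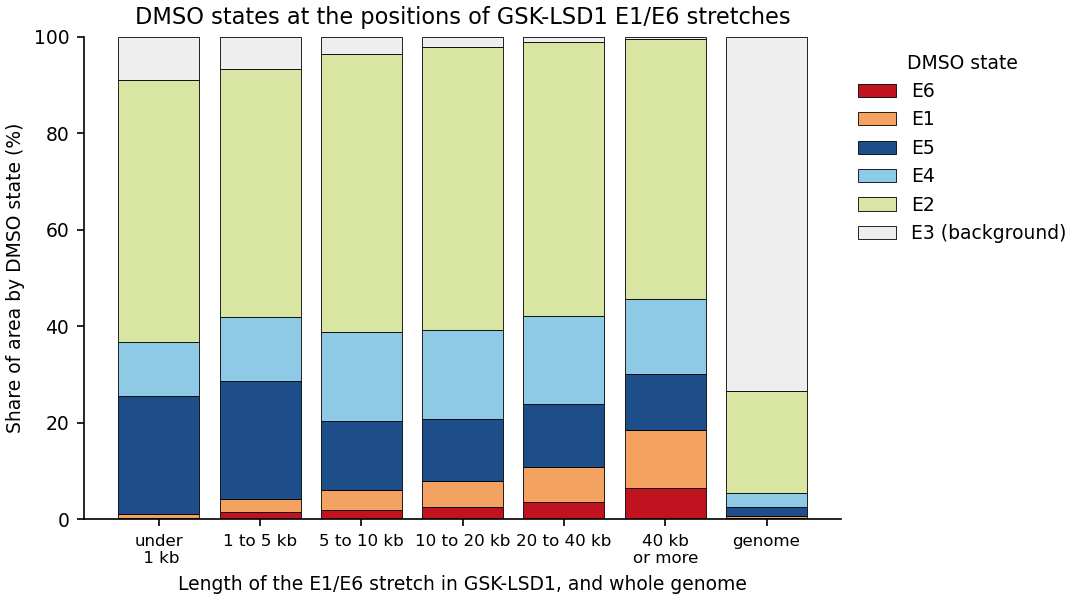
Share of area (%) in each DMSO state at the positions of merged E1/E6 stretches of GSK-LSD1, by stretch length, with the whole genome on the right. The E1 and E6 part is 18.6% in stretches of 40 kb or more and 1.17% in those under 1 kb, and background is 73.3% of the genome.

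The 20 longest stretches were 134 to 234 kb long, and 2 of them overlapped no protein-coding gene. The first, 234 kb (chr6:134033601-134267400), covered 98.8% of Etv6. Etv6 held 232 kb of E1 or E6 in GSK-LSD1 and 78.8 kb in DMSO. The second, 229 kb (chr16:93040801-93270000), overlapped no protein-coding gene and lay 215 kb from Runx1, a transcription factor needed to form blood stem cells. It was 17.3% E6 in GSK-LSD1, and in DMSO it was 71.9% E2 and 28.0% E1 or E6, with no E5. A stretch of 213 kb on chromosome 12 reached from the protein kinase C gene Prkch to the start of Hif1a, the transcription factor of the hypoxia response. On chromosome 17, 212 kb covered 71.2% of Thada, without its start site, and the whole of Zfp36l2, whose protein speeds mRNA decay, and 78.3% of it was E2 in DMSO.

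Cux1, a homeodomain factor, held a stretch of 190.2 kb (chr5:136380201-136570400) that was 35.0% E6. In DMSO that stretch was 38.6% E1 or E6, 30.2% E2 and 21.9% E4. The Ahi1 and Myb locus had 176 kb (chr10:20976801-21153000) in 42 segments, with 21 runs of E6. Myb encodes a factor of progenitor cells, and 77.9% of it was covered. Its start, which was E6 in both segmentations, lay outside the stretch, beyond an E5 border. Tec and Txk, neighbouring genes of Tec family tyrosine kinases, shared 154 kb (chr5:72716001-72870400) that was 55.4% E6, and in DMSO 20.3% was E5 and 31.1% E1 or E6. The Ifitm cluster of interferon-induced membrane proteins lay in 138 kb on chromosome 7 that was 73.5% E6, the highest E6 share among the 20 longest. In DMSO 36.8% of it was E6.

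The other 12 of the 20 longest were 134 to 178 kb long. They overlapped Prune2, Prkca (protein kinase C alpha), Xylt1, Cers6 (a ceramide synthase), Auh, Furin (a proprotein convertase) and Blm (a DNA helicase), Gse1 (a protein found with LSD1 and CoREST), Vps13d, Ikzf2 (the IKAROS family factor Helios), Armc9 and B3gnt7, and Susd1 and Ptbp3. The remaining one overlapped no protein-coding gene and lay 41.1 kb from Tomm20. Their E6 shares were 12.3 to 32.7% in GSK-LSD1, and their DMSO shares of E1 or E6 were 11.8 to 51.8%, highest at Gse1.

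**Figure D4:**
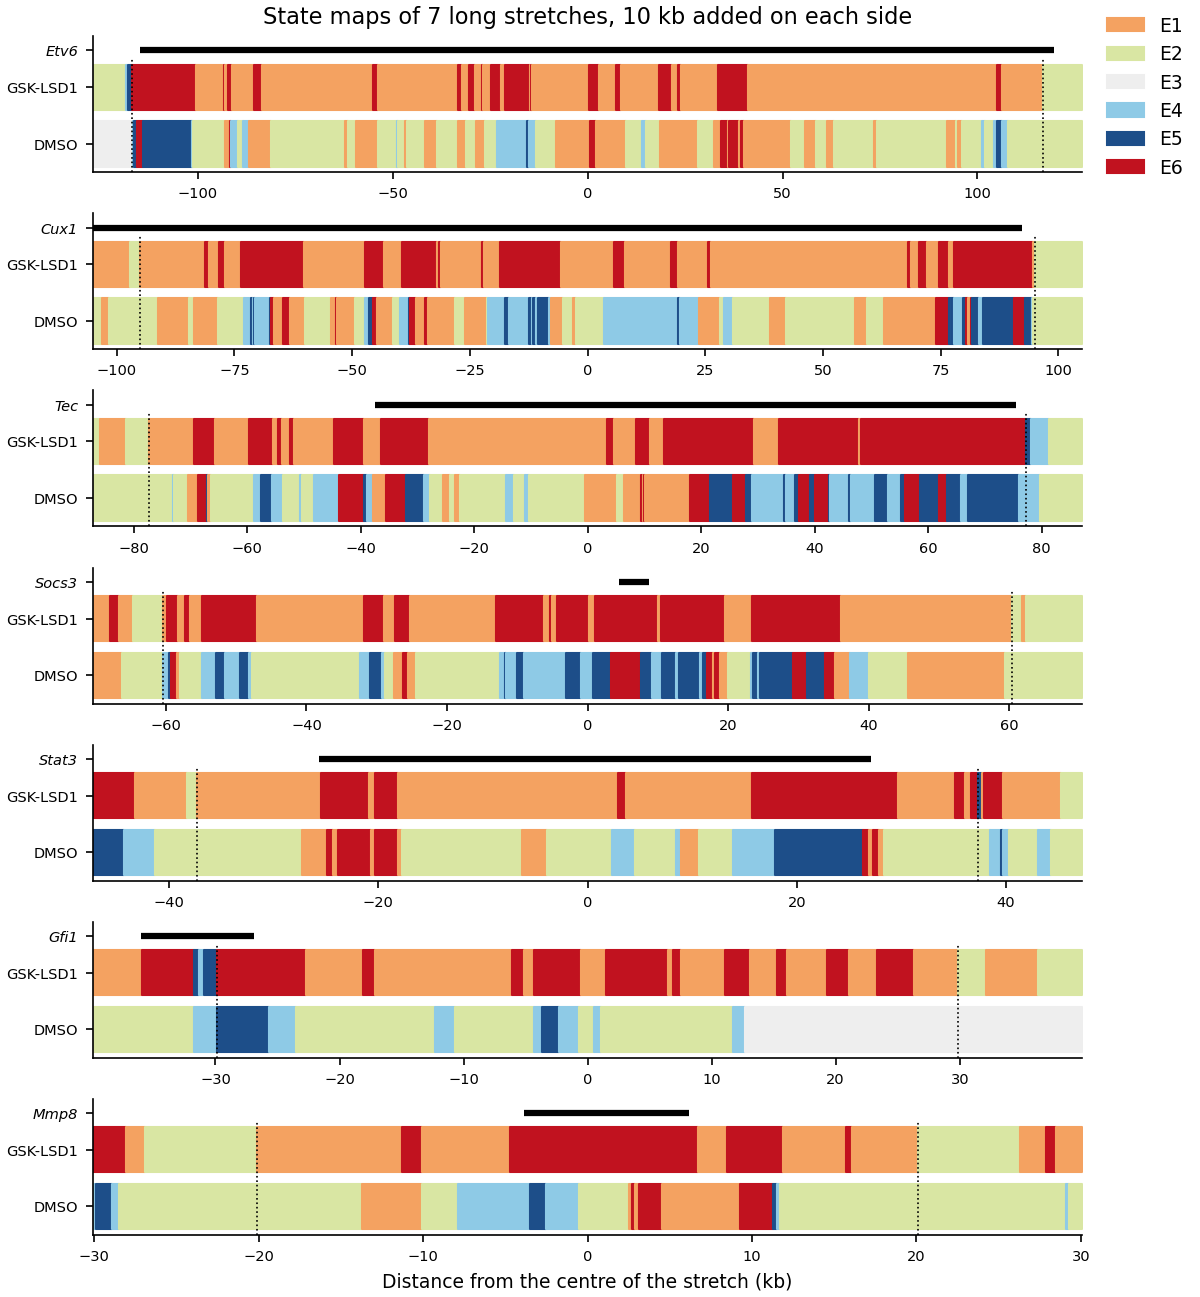
States along 7 long stretches (dotted lines mark the ends) with 10 kb on each side, GSK-LSD1 above DMSO in each panel, by distance from the centre (kb). The black bar is the named gene. At Gfi1 the right side is background in DMSO (28.8% of the stretch), and at Etv6, Cux1, Tec, Socs3, Stat3 and Mmp8 the DMSO row holds between 21.2 and 38.6% E1 or E6, against 0% at Gfi1.

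Of the stretches, 1512 (82.8%, 81.0 to 84.5%) overlapped a protein-coding gene and 644 lay wholly within 1 gene. The bins of the stretches fell in such genes in 67.0% of cases, against 64.9% for shorter stretches and 39.2% for the genome. In all, 1773 of 21631 protein-coding genes (8.2%) were overlapped, 392 of them wholly inside 1 stretch. A start site lay inside a stretch for 918 of the 17274 genes that have one in the promoter table (5.31%). The same rule in DMSO overlapped 19 genes (0.0878%). Long genes were overlapped more often: 3.44% of the shortest quartile of genes (up to 5.84 kb), 5.90% and 8.42% of the next ones, and 15.03% of the longest quartile (from 44.9 kb). Start sites were denser than in the genome, at 16.9 against 7.99 per Mb, but sparser than in shorter stretches, at 52.9 per Mb. Where the stretches lie relative to exons and introns was not analysed here.

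The genes with the most covered bases were long and of mixed function. Maml3, a Notch coactivator, had 267 kb in 3 stretches, Igf1r, the receptor for insulin-like growth factor, 220.0 kb in 3, and Tiam1, an activator of the GTPase Rac, 215 kb in 4. E1 and E6 together covered 323 kb of Maml3 in GSK-LSD1 and 32.4 kb in DMSO. They covered 291 kb of Tiam1 in GSK-LSD1 and 19 kb in DMSO. The other 9 of these 12 were Etv6, Cux1, Vps13d, Gse1, Cers6, Thada, Fam155a, Rapgef2 and Clec16a, with 174 to 232 kb covered. The longest genes wholly inside 1 stretch were Tec (113 kb), Auh, Blm, Cytip, the signalling adaptor Grb2, Swap70, Emilin2 and Fabp12 (57.3 kb). At the 7 of these 8 that have a start site in the table, the start was E6 in GSK-LSD1. In DMSO it was E6 at Cytip and E5 at the other 6.

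The share overlapped differed between gene lists. The lists were written with earlier results of these data known, so their shares are descriptions. An overlap of 1 base was enough to count a gene. Against the 8.2% of all protein-coding genes, 12 of 20 genes of JAK/STAT signalling (60%, 38.7 to 78.1%), the pathway downstream of CSF3R, were overlapped. So were 10 of 18 genes of chemokines, receptors and adhesion (55.6%), 9 of 18 of leukocyte signalling and cytoskeleton (50%), 8 of 18 of progenitors and leukaemia (44.4%), 4 of 10 of azurophil granules (40%) and 8 of 22 myeloid transcription factors (36.4%). Counts were lower for LSD1, CoREST and GFI1 (3 of 14, 21.4%), AP-1, NF-kB and feedback (4 of 20, 20%), granulocyte maturation (4 of 22, 18.2%) and the interferon response (2 of 16, 12.5%). In markers of other cells, 1 gene each was overlapped of 18 for B and T lymphocytes, 18 for monocytes and macrophages, 16 for erythroid cells and megakaryocytes, 11 for mast cells, basophils and eosinophils and 13 for stroma and endothelium. Of 15 housekeeping genes 1 was overlapped, and of 16 genes of unrelated tissues 0 (0 to 19.4%). Gene length differed between the lists. Median lengths were 6.15 kb (AP-1, NF-kB and feedback) to 46.6 kb (leukocyte signalling and cytoskeleton), with 24.1 kb for JAK/STAT signalling, 13.8 kb for chemokines, receptors and adhesion, 6.63 kb for azurophil granules, 33.6 kb for LSD1, CoREST and GFI1, and 39.9 kb for stroma and endothelium. The part of gene length in the counts was not tested.

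**Figure D5:**
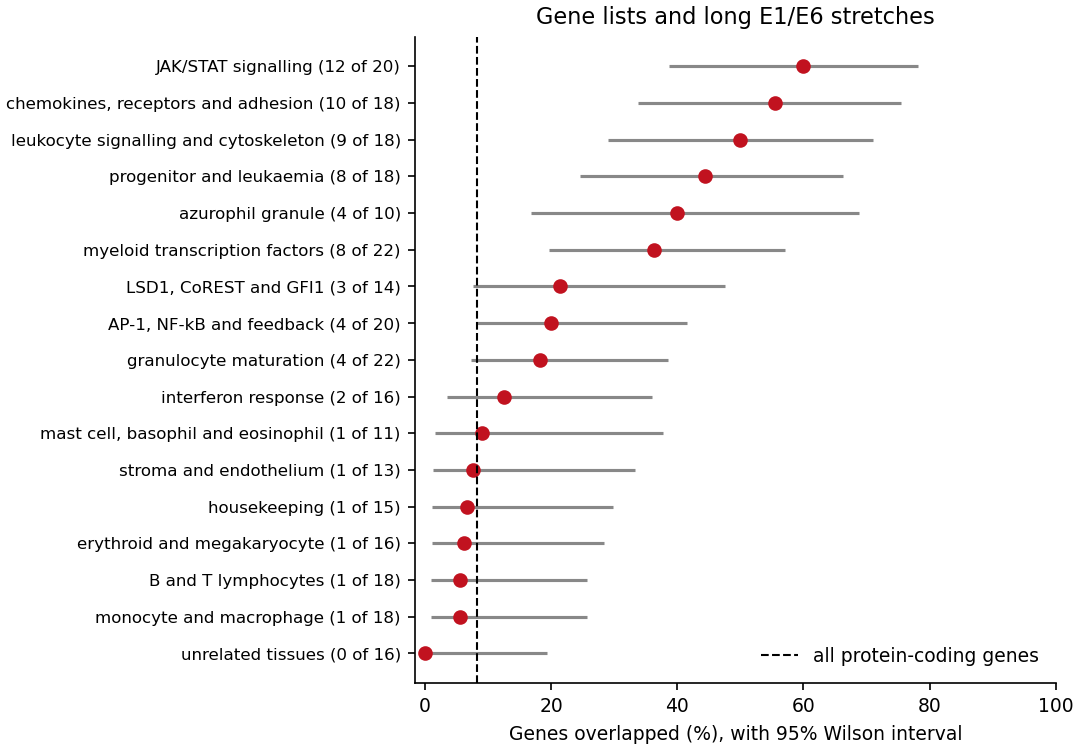
Share of each gene list (%) overlapped by a long stretch in GSK-LSD1, with 95% Wilson intervals for counting error, and the number of genes in parentheses. The dashed line is the 8.2% of all protein-coding genes. JAK/STAT signalling is highest at 60% and unrelated tissues lowest at 0%. The lists were written with earlier results of these data known.

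In the JAK/STAT pathway the kinase Jak1 was covered over 103 kb in 2 stretches, and its gene body held 104 kb of E1 or E6 in GSK-LSD1 and 15.6 kb in DMSO. The Stat5b, Stat5a and Stat3 genes, which encode the transcription factors that the kinases activate, lie side by side on chromosome 11 and were covered by 3 stretches of 32.8, 26.4 and 74.6 kb. Stat3 lay wholly inside the last, and its start was E6 in GSK-LSD1 and E1 in DMSO. E1 and E6 covered 60 kb of Stat5b in GSK-LSD1 and 7 kb in DMSO. The survival gene Bcl2l1 had 60 kb covered, of a stretch that was 85.7% E2 in DMSO. Among the feedback inhibitors, Socs3 lay in a stretch of 121 kb (chr11:117901201-118022000) that was 47.7% E6, Socs1 in 111 kb and Socs2 in 41.8 kb. The kinase gene Pim1 (42.4 kb) and the cytokine gene Osm (51.6 kb) were likewise wholly inside. The start of Socs3 was E6 in GSK-LSD1 and E5 in DMSO, while those of Socs1 and Pim1 were E6 in both. Of the phosphatase gene Ptpn6, 18.2 kb was E1 or E6 in GSK-LSD1 and 1.6 kb in DMSO, and its stretch also held the miR-141 and miR-200c hairpins. Jak2 was touched over 4.00 kb. Members that no stretch overlapped included Jak3, Tyk2, Stat2, Stat4, Stat6, Cish and Pim2, the last at 0.305 kb from a stretch.

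Among myeloid transcription factors, Runx1 had 3 stretches of 36.2, 68 and 55.2 kb, of which 55.8%, 42.4% and 56.2% was E1 or E6 in DMSO. Zeb2, a zinc finger repressor, also had 3, of 37.8, 64.4 and 41.4 kb, but none of that area was E1 or E6 in DMSO, where it was 77.0 to 92.3% E2. Zeb2 thus held 120.4 kb of E1 or E6 in GSK-LSD1 and 0 kb in DMSO. Fli1, an ETS factor, had 79 kb that was 57.2% E6, with 28.9% E5 and 10.6% E1 or E6 in DMSO. Spi1, which encodes the master myeloid factor PU.1, lay just above the limit with a stretch of 20.4 kb that was 76.5% E6 and bordered by E5 on both sides. Klf6, Fosl2 and Nfe2 were also overlapped. Cebpa, the cells' own copy of the introduced gene, lay 3948 kb from the nearest stretch, Irf8 193 kb, and Cebpb 2.97 kb.

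Granulocyte genes were overlapped at 4 loci. Mmp8 lay wholly in a stretch of 40.2 kb (chr9:7542201-7582400), and 30.8% of that stretch was E1 or E6 in DMSO. Cebpe, a factor of late granulocyte maturation, lay wholly in 50.4 kb that was 48.8% E6, with 3.17% E1 or E6 in DMSO. The chemokine receptor gene Cxcr2 had 5.85 kb covered, and its start, in E5, was outside the stretch. For Itgam only the first 0.161 kb was covered, by a stretch of 20.4 kb before the gene (chr7:128042401-128062800) that held no E1 or E6 in DMSO. The other 18 members of the list lay 25.2 kb (Ngp) to 2922 kb (Mmp25) from the nearest stretch, with Cd177 at 73.9 kb, Lcn2 at 149 kb, Ltf at 304 kb, Camp at 455 kb, Csf3r at 802 kb and S100a8 at 1423 kb. Of the azurophil granule genes, which mark promyelocytes, the serine protease genes Elane and Prtn3 lay inside 1 stretch of 28.2 kb (chr10:79873801-79902000). It was 43.3% E6 in GSK-LSD1, and 53.2% E2 and 30.5% E5 in DMSO. Srgn, the core protein of granule proteoglycan, was in 77.8 kb and the protease inhibitor gene Serpinb1a in 44.4 kb, while Mpo lay 328 kb and Ctsg 146 kb from a stretch.

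Among partners of LSD1, the 2 repressor genes and Gse1 were overlapped. Gfi1 lay at the junction of 2 stretches of 31 and 59.8 kb, and none of that area was E1 or E6 in DMSO. The larger one was 49.2% E2 and 28.8% background in DMSO, against 0.751% background over all stretches. Gfi1b was wholly inside 39.6 kb that was 57.6% E6, and 9.09% background and 14.1% E1 or E6 in DMSO. Both starts were E6 in GSK-LSD1 and E5 in DMSO. Gse1 differed, with 214.8 kb covered by 2 stretches that were 51.8% and 57.9% E1 or E6 in DMSO. Kdm1a itself lay 628 kb from a stretch, and Rcor1 258 kb.

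Progenitor genes differed in the DMSO states at their stretches. Cdk6, a cell cycle kinase, had 117 kb covered by 3 stretches, and the largest, 90.2 kb, was 70.7% E6 in GSK-LSD1 and 60.1% E1 or E6 in DMSO. Erg, an ETS factor of stem cells, had 101 kb in 2 stretches of which 24.8% and 22.8% was E1 or E6 in DMSO. Gata2 and Tal1, factors of early progenitors, lay wholly inside stretches of 23.8 and 26.4 kb, of which 38.7% and 29.5% was E1 or E6 in DMSO. In contrast, the stretches at Cd34, Meis1 and Mecom, of 24.8, 20.2 and 25.8 kb, held no E1 or E6 in DMSO, and 23.8% of the one at Meis1 was background. Kit, Hoxa9 and Myc were not overlapped, with Myc at 155 kb.

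Adhesion and signalling genes of leukocytes were covered in long pieces. Pecam1, an adhesion molecule of leukocytes and endothelium, had 60.9 kb covered in a stretch of 90.4 kb. The integrin genes Itga4, Itgal and Itgb7 had 28.8, 8.46 and 9.41 kb covered, and their stretches were 55.4 to 67.1% E6 in GSK-LSD1, with 0 to 2.38% E1 or E6 in DMSO. Ccl6 and Ccl9 shared a stretch of 91.6 kb, and Ccl3 lay 0.042 kb from a stretch. Ccr7 lay in 129.8 kb, with Ccr1 and Selplg in shorter ones. Among signalling genes, Plcg2, a phospholipase, had 81.3 kb covered and Lcp1, an actin bundler, 70.1 kb. Syk, a tyrosine kinase, and Inpp5d, which encodes the phosphatase SHIP1, had 46.2 and 46.5 kb. E1 and E6 covered 82.6 kb of Lcp1 in GSK-LSD1 and 7.4 kb in DMSO. Ptprc, which encodes CD45, held 53.4 kb in GSK-LSD1 and 0 kb in DMSO. The other covered members were Pik3cd, Dock2, Laptm5 and Rac2.

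Of the stress and feedback list, the overlapped genes were Nfkb1 (56.9 kb), Nfkbia, Dusp2 and Dusp5, and of the interferon list Irf1 and Irf9. The single members in the lists of other cells were Tcf7 of lymphocytes, over 36.4 kb in a stretch of 98.8 kb, Ccr3 of eosinophils, Lgals3 of macrophages, Pdgfrb of stroma and Pf4 of megakaryocytes, the last over 0.383 kb. Defining markers such as Cd3e, Gata1, Col1a1 and Cdh5 were not overlapped. Actb was the housekeeping gene overlapped.

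The 6 stretches with the highest E6 share were 21 to 30.6 kb long and were 36 to 68.5% E5 in DMSO. The one that was E6 throughout, 30.6 kb (chr11:98936801-98967400), lay in Rara, the retinoic acid receptor alpha gene. In DMSO it was 49.0% E5, 26.1% E6, 17.0% E4 and 7.84% E1, with no E2. The next were at Mapkapk2 (93.5% E6), Dyrk3, Pxn, Parp8 and Mbnl1 (89.4% E6), all of 21 to 25 kb. At the other end, the 6 longest stretches without E6 lay in Foxo3 (45.6 kb), Ssbp2 (43.8 kb), Hectd4, Cux1 (35.4 kb, beside the larger one) and Cdkal1, and 227 kb from Stt3b. They were 54.8 to 100% E2 in DMSO, and the one in Ssbp2 was E2 throughout, the longest of 14 such stretches.

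Few stretches lay mainly over background of DMSO. The highest share, 70.8%, was at a stretch of 21.2 kb in Stxbp4 that was E1 throughout in GSK-LSD1. The next, 62.2%, covered the olfactory receptor genes Olfr433 and Olfr432 (22.2 kb). Others lay near Cspg4b, Fam174a and Itga1 and in Sgip1, at 42.2 to 60.7%. Conversely, 2 stretches were E1 or E6 throughout in DMSO. One, 65.6 kb over Sfi1, was 4.57% E6 in GSK-LSD1 and 39.3% E6 in DMSO. The other, 26.4 kb over Hjurp, the chaperone of the centromeric histone CENP-A, and part of Mroh2a, was 51.5% E6 in GSK-LSD1 and 59.1% E6 in DMSO. Then came 3 neighbouring stretches near Lemd2 and Grm4 on chromosome 17 (30.6, 53.4 and 31 kb), with 85.0 to 97.4% E1 or E6 in DMSO, and one in Zmiz1 with 79.8%.

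The 314 stretches without a protein-coding gene lay a median of 37.0 kb from the nearest one. Behind the one 215 kb from Runx1 and the one 41.1 kb from Tomm20 came 129.6 kb on chromosome 17, 38.8 kb from Haao, and 103 kb on chromosome 15, 36.0 kb from Gsdmc. Of the 12 longest, 11 overlapped at least 1 annotated long noncoding RNA gene. All 12 were over 35% E2 in DMSO, at 38.7 to 86.3%.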

How the data were processed

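The authors deposited state labels (E1 to E6, in 200 bp steps), 1 segmentation per treatment with its 3 marks combined, per the labels. Bowtie and the build mm10 (GRCm38) appear in the processing fields, per the submitters' processing notes. How the segmentation was made, how the input was used and what defines each state is not stated in the sources used here. A state is a label and not a measured amount. Read depth or the quality of a precipitation could change it, and both libraries and states are unreplicated.

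Segments were expanded to 200 bp bins on chromosomes 1 to 19 and X (2633.77 Mb). Stretches, state shares, runs, flanks and overlaps with 21631 protein-coding genes (RefSeq, GRCm38 assembly) were computed with Python 3.11.15, numpy 2.4.6, pandas 2.3.3 and SciPy 1.17.1. Start sites came from the RefSeq promoter table (21045 windows, with none for 4357 genes). A gene was overlapped if at least 1 base lay in a stretch. The calculation was tested on simulated segmentations with planted stretches. Of 286 entries in 17 gene lists, 285 were matched.

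The members and lists were chosen with earlier results of these data known. The rule for named genes took the 20 longest stretches, the 6 highest and lowest in E6 share, the 6 highest in background and in E1 and E6 share in DMSO, the genes they overlap, the 12 genes with most covered bases, the 8 longest genes wholly inside, and 4 members of each list. Other genes were named after their values were seen. Alternatives changed the length limit, bridging, the states merged, the sequences used, short segments and the overlap rule. Reads and signal were not analysed here. Some genes that the rule takes are left out of the text.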

Additional observations from a re-analysis of the deposited data

How the results depend on the processing

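Of 83 alternative values of 11 results, 62 stayed within 1.5 times the count reported or inside the 95% Wilson interval of a share. The other 21 did not. The intervals were taken over stretches, since bins of a stretch share their source. Changes of direction were not assessed. Bridging interruptions of at most 400 or 1000 bp, all sequences in the files, and giving 200 bp segments the state before them moved none. At a minimum of 15 kb there were 2763 stretches in GSK-LSD1 and 54 in DMSO. At 30 kb there were 928 in GSK-LSD1 and 4 in DMSO, 1030 genes, 85.8% with a gene and 16.9% E1 or E6 in DMSO. With E1 alone there were 363 stretches (9.81 Mb) in GSK-LSD1 and 2 in DMSO, with 264 genes, and their DMSO states were 83.2% E2, 11.1% E1 or E6, 5.27% E4 or E5 and 0.351% background. With E5 merged as well, 84.6% overlapped a gene, the DMSO states were 52.8% E2 and 32.5% E4 or E5, and DMSO had 42 stretches. Of the genes overlapped, 936 were covered over at least 50% of their length. Counting start sites inside gave 918 genes (5.31% of those with a start site). Within 20 kb of a stretch lay 92 of the list genes, against 70 overlapped (11.9% of all protein-coding genes were that near). Of the 17 lists, 5 moved by over 1.5 times, among them monocytes and macrophages, with 5 genes near and 1 overlapped.

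No paired analysis was possible because each treatment had 1 segmentation and no replicates. Depth is unknown, and a difference between 2 single segmentations cannot be told apart from a difference between libraries.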

Other observations

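Some stretches had close neighbours. The 1806 gaps between successive stretches on a chromosome had a median of 255.4 kb, and 38.3% were at most 100 kb. Of these gaps, 193 (10.7%) were at most 5 kb, and those were 76.1% E2 and 14.8% E5 in GSK-LSD1. Linking stretches within 100 kb gave 1135 groups, 704 of them single stretches and 23 with 5 or more. The largest group had 9 stretches over 478 kb on chromosome 13 at Rreb1, a zinc finger transcription factor, and a group of 7 on chromosome 16 included Clec16a and Socs1. Chromosome 11 held 171 stretches (1.40 per Mb) and chromosome 19 held 71 (1.16 per Mb). Chromosome X held 3 (0.0175 per Mb), at Otud5, at the miR-221 and miR-222 locus and at Arhgap6.

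The 17 stretches found in DMSO by the same rule lay at Cdk6, Runx1, Ifitm3, Sbno2, Spns2, Csf2rb2 (a receptor subunit for the cytokine IL-3), Zdhhc3, Sfi1, Mroh2a and elsewhere. At 12 of them all bins were E1 or E6 in GSK-LSD1, in stretches of 31 to 178 kb. The exception with none in GSK-LSD1 was 20 kb over the Ugt1a cluster of glucuronosyltransferase genes on chromosome 1. Another, 36.8 kb from base 3000001 of chromosome 9, was 61.4% E1 or E6 in GSK-LSD1, and no long stretch of GSK-LSD1 overlapped it. Of 12697 long noncoding RNA genes 799 (6.29%) were overlapped by a stretch in GSK-LSD1, and of 9852 pseudogenes 209 (2.12%).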
